A study of Rattus norvegicus with 9 samples.

Results

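The nuclear-encoded subunits of respiratory complex I were followed in the skin of old and young rats. They were taken as every symbol of the count table that begins with NDUFA, NDUFB, NDUFC, NDUFS or NDUFV followed by a digit, which gave 40 of 23480 symbols. Of the 40, 35 had enough counts to be tested. The old group held 4 male Wistar rats of 24 months and the young group 5 male Wistar rats of 6 months. Wistar rats are an outbred laboratory stock. The labels name no treatment or altered allele for either group, and the sources used here do not give the body site. RNA with a poly(A) tail was sequenced from whole skin, so all cell types of the biopsy are pooled, and fewer cells of a type cannot be told apart from less RNA per cell.

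Complex I (NADH:ubiquinone oxidoreductase) is the entry point of electrons into the mitochondrial respiratory chain. Its matrix arm takes electrons from NADH and passes them along iron-sulfur clusters to ubiquinone, and its membrane arm pumps protons that drive ATP synthesis. The core subunits carry the catalysis; the accessory subunits surround them and are needed for assembly and stability. Part of the core is encoded in the mitochondrial genome and was not analysed here. Skeletal muscle is rich in mitochondria, and rodent skin carries a muscle layer, the panniculus carnosus. The muscle genes ACTA1 (skeletal muscle actin) and CKM (muscle creatine kinase) were therefore followed in the same samples.

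Total counts were 20.1 to 34.1 M (M, a count of 1000000) in old and 17.3 to 20.2 M in young libraries (two-sided exact permutation p = 0.0159). Old libraries were thus deeper on average, but old replicate 2 (20.13 M) lay just under young replicate 2 (20.18 M). Over all 14933 genes tested, 1437 were higher and 659 lower in old skin (edgeR quasi-likelihood test, Benjamini-Hochberg adjusted p under 0.05). Levels are counts per M after TMM scaling (CPM), and a fold change is the log2 ratio of old to young skin, given ± its SE. Sample values are listed in the order of replicates 1 to 4 for old and 1 to 5 for young rats. The p-values set a difference or slope against the spread between these samples.

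The promoters of the members were searched for short motifs of factors known to drive respiratory chain genes, since most members varied together across animals. Sequences of 300 bases, from 250 before to 50 after the gene start, were available from RefSeq (build GRCr8) for 32 of the 35 tested members. The NRF1 motif (GCGCA and GCGC with 1 base of any kind between them), searched like the others on both strands, occurred in 6 of the 32 (18.8%) and in 4.25% of all 33469 promoters. The YY1 motif AAGATGGCG also occurred in 6 of 32 (18.8%), against 1.73% of all promoters. All of these YY1 matches lay after the gene start, and the motif contains the letters of a start codon. The ETS-type motif CCGGAAGTG (GABP) and the ESRRA motif TCAAGGTCA occurred in 0 of 32, against 1.89% and 0.433% of all promoters. No member's promoter held more than 1 kind of motif, and 12 of 32 held any (37.5%, against 7.77% of all promoters). The median GC content was 56.7% in the members' promoters and 51.7% in all promoters, and the shares were not adjusted for it. All promoters also include those of genes not tested here, so the shares do not compare the members with other expressed genes. A match describes letters only. The 150 bases before the gene start are shown for the 4 members with an NRF1 match there and a gene start at the outermost annotated end, with the match in capitals, followed by NDUFA4L2, which holds none of the motifs and whose level did not follow that of muscle. These were chosen after the matches were seen. NDUFS5, not shown, also held an NRF1 match before its gene start, and no slope of its level on muscle was called either. NDUFS3 and NDUFV2 held none of the motifs and were among the members that followed muscle most steeply. Any relation between motif and muscle level was not tested.
NDUFA5 (chr4:53971236-53971385, minus strand): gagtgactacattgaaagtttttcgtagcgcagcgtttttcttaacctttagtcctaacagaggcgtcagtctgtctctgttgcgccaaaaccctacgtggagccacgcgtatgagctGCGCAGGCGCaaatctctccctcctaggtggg
NDUFA11 (chr9:1637464-1637613, plus strand): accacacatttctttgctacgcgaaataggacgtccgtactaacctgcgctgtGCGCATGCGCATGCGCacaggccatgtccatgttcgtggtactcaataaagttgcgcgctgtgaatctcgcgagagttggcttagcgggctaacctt
NDUFA12 (chr7:30658166-30658315, plus strand): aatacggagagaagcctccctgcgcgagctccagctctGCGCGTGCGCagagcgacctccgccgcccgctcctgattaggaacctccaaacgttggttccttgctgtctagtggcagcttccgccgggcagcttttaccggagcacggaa
NDUFV3 (chr20:9613636-9613785, plus strand): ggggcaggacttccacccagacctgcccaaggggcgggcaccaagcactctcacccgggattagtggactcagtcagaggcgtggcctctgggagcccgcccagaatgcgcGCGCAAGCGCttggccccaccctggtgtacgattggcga
NDUFA4L2 (chr7:65242019-65242168, plus strand): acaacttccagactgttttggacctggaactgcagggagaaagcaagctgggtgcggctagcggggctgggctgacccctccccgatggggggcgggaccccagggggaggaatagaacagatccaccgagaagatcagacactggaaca
In NDUFA11 the capitals hold 2 overlapping matches.

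All 35 tested members had a fold change below 0, under TMM and also under each of 3 other scalings, but only 1 passed the test. That member was NDUFC1, a small accessory subunit of the proximal membrane arm. The share called lower was thus 2.86% of the members, and 4.41% of all genes were called lower, so the count of calls was near the background. No member was called higher (0 of 35, where 9.62% of all genes were), and 0 reached an unadjusted p under 0.05 in that direction, against 16.1% of all genes. DESeq2 and limma-voom also called 0 members higher, where they called 1932 and 1325 of all genes. The median fold change was -0.54 over the members and -0.05 over all genes, of which 54.3% were below 0. An unadjusted p under 0.05 in the lower direction was reached by 30 of 35 members and by 13.3% of all genes. With library totals alone as the scaling, the median of all genes moved to 0.11 and that of the members to -0.39. Without old replicate 3 the members' median was -0.34, and 34 of the 35 were below 0.

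NDUFC1 had 44.0, 62.2, 29.3 and 38.5 CPM in old rats, against 64.3, 85.3, 61.4, 69.3 and 78.2 CPM in young rats. The groups overlapped only through old replicate 2, which stood just above the lowest young animal. NDUFC1 averaged 43.5 ± 13.9 CPM in old and 71.7 ± 9.93 CPM in young skin (SD, n = 4 and n = 5), a fold change of -0.72 ± 0.20 (edgeR adjusted p = 0.0428). The call was lost when any library except old replicate 2 was left out (adjusted p up to 0.141). The number of members called lower depended on old replicate 2 and on the tool. Without that library 17 members were called lower, and 786 of all genes. Without any 1 of the others 0 members were called, and 236 to 526 of all genes. DESeq2 called 10 members and 1280 genes lower, and limma-voom 4 members and 729 genes.

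In the count of groups that did not overlap, 5 of the 35 members had every old animal below every young one (14.3%), as had 6.51% of all genes; 0 had every old animal above, against 10% of all genes. These were NDUFA2, NDUFA3, NDUFB7, NDUFB9 and NDUFV3. None passed the adjusted test, and their adjusted p ran from 0.0536 for NDUFA3 to 0.0892 for NDUFV3. NDUFB9, an accessory subunit of the LYR motif family in the distal membrane arm, had 120, 161, 85.5 and 113 CPM in old rats, against 171, 248, 166, 163 and 204 CPM in young rats. Its highest old value lay just under its lowest young value, and its fold change was -0.67 ± 0.20 (edgeR adjusted p = 0.055). NDUFB7, a distal subunit with paired disulfide bonds that faces the intermembrane space, had 61.1, 75.4, 30.7 and 49.9 CPM in old rats, against 86.0, 110, 83.5, 83.01 and 87.1 CPM in young rats. Its fold change was -0.73 ± 0.23 (edgeR adjusted p = 0.0622). It passed with DESeq2 (adjusted p = 0.0174) and limma-voom (0.0478), and with edgeR without old replicate 2 (0.0233).

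**Figure D1:**
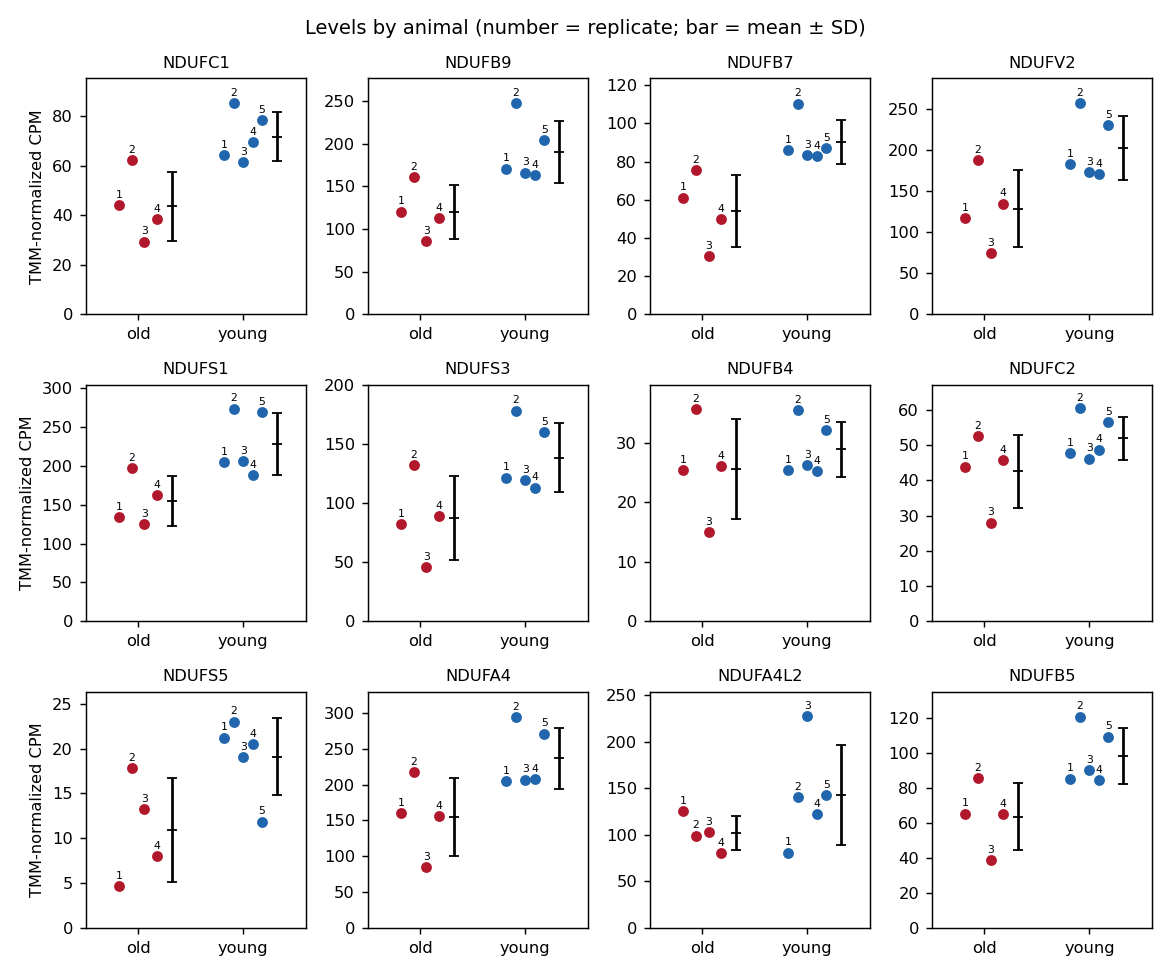
Levels of 12 members in each animal, as TMM-normalized CPM on axes that start at 0, with old rats (red, n = 4) left of young rats (blue, n = 5), the replicate number above each point and the mean ± SD beside it. In most panels old replicate 3 is the lowest point, as for NDUFC1 at 29.3 CPM, and young replicate 2 the highest, at 85.3 CPM; NDUFA4L2, NDUFS5 and NDUFB4 have another order.

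The 7 nuclear-encoded core subunits had a median fold change of -0.64, and 0 passed. NDUFV1, which binds NADH and its flavin, was at -0.51 ± 0.20 (edgeR adjusted p = 0.117). NDUFV2, an iron-sulfur subunit beside it, had 117, 188, 75.1 and 135 CPM in old rats, against 183, 257, 173, 171 and 230 CPM in young rats. The old value of replicate 2 lay within the young range and the other 3 below it. NDUFS1, the largest subunit of the matrix arm with several iron-sulfur clusters, had 134, 197, 125 and 163 CPM in old rats, against 205, 274, 206, 188 and 270 CPM in young rats. Only old replicate 2 exceeded the lowest young animal. NDUFS3, a core subunit next to the ubiquinone site, had 82.3, 132, 46.0 and 89.4 CPM in old rats, against 122, 179, 120, 113 and 161 CPM in young rats. Here too old replicate 2 lay inside the young range and the other old rats below it. NDUFS7, whose iron-sulfur cluster hands electrons to ubiquinone, was at -0.66 ± 0.32 (edgeR adjusted p = 0.199).

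The 8 tested accessory subunits of the matrix arm ranged from -0.60 to -0.33 (median -0.48), and 0 passed. The smallest difference was that of NDUFS4, whose loss in mice causes a Leigh-like brain disease. It had 74.3, 88.2, 64.3 and 79.3 CPM in old rats, against 81.8, 114, 90.2, 92.2 and 102 CPM in young rats. The groups overlapped at old replicate 2, and the fold change was -0.33 ± 0.13 (edgeR adjusted p = 0.128). NDUFA9, which belongs to the short-chain dehydrogenase fold family, was the most negative at -0.60 ± 0.21 (adjusted p = 0.0876, edgeR).

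The 8 tested accessory subunits of the proximal membrane arm ranged from -0.81 to -0.29 (median -0.47). NDUFS5, another disulfide-bonded subunit of the intermembrane side, had 4.64, 17.9, 13.2 and 7.97 CPM in old rats, against 21.2, 23.0, 19.0, 20.5 and 11.9 CPM in young rats. It gave the most negative fold change of all members with the widest error (-0.81 ± 0.36, edgeR adjusted p = 0.169). Young replicate 5 lay below old replicates 2 and 3, and the other young animals lay above all old ones. NDUFC2, which sits beside NDUFC1 in the complex, had 44.0, 52.5, 28.0 and 45.9 CPM in old rats, against 47.7, 60.5, 46.2, 48.8 and 56.5 CPM in young rats. Its fold change was -0.29 ± 0.17 (edgeR adjusted p = 0.3). NDUFA8, a disulfide-bonded subunit like NDUFS5, had 49.0, 56.4, 29.8 and 45.6 CPM in old rats, against 55.8, 70.8, 52.6, 57.1 and 59.9 CPM in young rats (-0.39 ± 0.17, edgeR adjusted p = 0.169). In both genes the groups overlapped through old replicate 2.

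The 10 tested accessory subunits of the distal membrane arm ranged from -0.73 to -0.18 (median -0.58), and 0 passed. NDUFB4 had the smallest difference of all members, with 25.5, 35.7, 15.04 and 26.1 CPM in old rats, against 25.4, 35.6, 26.3, 25.3 and 32.2 CPM in young rats. Apart from old replicate 3 the animals of both ages covered the same range, and the fold change was -0.18 ± 0.23 (edgeR adjusted p = 0.628; 0.04 without old replicate 3). NDUFB2, a small membrane-anchored subunit, had 68.5, 96.2, 41.2 and 70.1 CPM in old rats, against 92.5, 133, 97.3, 97.5 and 119 CPM in young rats. NDUFB5, also anchored in the membrane, had 65.4, 85.6, 38.7 and 65.1 CPM in old rats, against 85.4, 120.8, 90.4, 84.8 and 109 CPM in young rats. In both, 3 old rats were below all young ones and old replicate 2 was within the young range.

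NDUFA4 and NDUFA4L2 carry complex I names, but NDUFA4 is now assigned to cytochrome c oxidase, and NDUFA4L2 is its paralog, known as a target of the hypoxia factor HIF-1. NDUFA4 had 161, 218, 84.4 and 156 CPM in old rats, against 205, 294, 207, 207 and 271 CPM in young rats. Old replicate 3 was lowest and young replicate 2 highest, at a fold change of -0.62 ± 0.25 (edgeR adjusted p = 0.136). NDUFA4L2 had 126, 99.1, 103 and 80.7 CPM in old rats, against 81.0, 141, 227, 123 and 143 CPM in young rats. Its highest value was in young replicate 3 and not in replicate 2, and the ages overlapped (-0.48 ± 0.26, edgeR adjusted p = 0.253).

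The other 5 members had too few counts to test. NDUFA7L had 0 counts in every library. NDUFB4L1 had 2 counts over the old and 2 over the young libraries, NDUFS6 2 and 3, and NDUFA13 24 and 45. NDUFS6 and NDUFA13 encode ordinary subunits, and RefSeq names 1 pseudogene of NDUFS6 and 4 of NDUFA13; the sources used here do not say how reads that match such copies were counted. The low counts of both are therefore uncertain as levels of the genes. RefSeq names 37 pseudogenes of 16 of the 40 members, 7 of them of NDUFB4, so the values of those members are uncertain. NDUFA10L1, an NDUFA10-like gene by its name, had 2, 219, 0 and 3 counts in old rats, against 0, 2, 0, 2 and 0 counts in young rats. Old replicate 2 alone held nearly all of them, while NDUFA10 itself had 65.03 CPM in that animal, inside the young range.

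**Figure D2:**
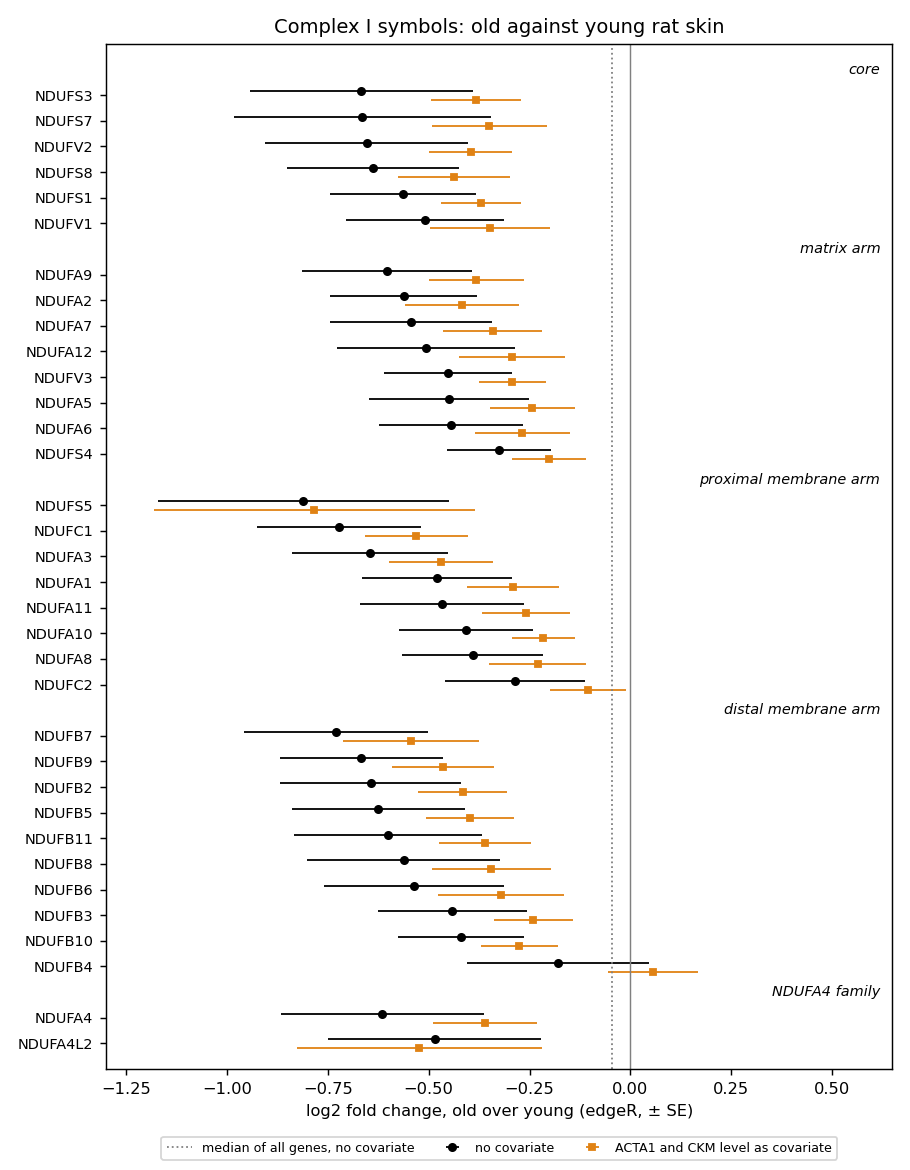
Log2 fold change of 34 of the 35 tested members in old relative to young skin, with its SE, grouped by place in the complex; black circles are the test without a covariate and orange squares the test with the ACTA1 and CKM level as a covariate. All circles drawn lie left of 0, and most squares lie closer to 0 than their circle, NDUFB4 at 0.06; NDUFA4L2 is the exception, at -0.52 with the covariate and -0.48 without.

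Muscle transcripts differed widely among the animals of each age, and the ages overlapped. ACTA1 had 7313, 24313, 2999 and 11265 CPM in old rats, against 14596, 26886, 14980, 12436 and 34476 CPM in young rats (-0.85 ± 0.57, edgeR adjusted p = 0.346). CKM had 5763, 16615, 2829 and 13155 CPM in old rats, against 7236, 14289, 7680, 6465 and 17081 CPM in young rats (-0.14 ± 0.52, edgeR adjusted p = 0.88). The mean log2 CPM of ACTA1 and CKM, called the muscle reference here, was 13.0 ± 1.203 in old and 13.7 ± 0.636 in young skin (two-sided exact permutation p = 0.31 over 126 splits). Old replicate 3 was the lowest of all 9 animals and young replicate 5 the highest. The CPM summed over the 40 members was 2773, 3658, 1807 and 2771 in old rats, against 3523, 4925, 3708, 3551 and 4322 in young rats. Old replicate 3 was lowest here too, and old replicate 2 was the single old rat inside the young range.

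**Figure D3:**
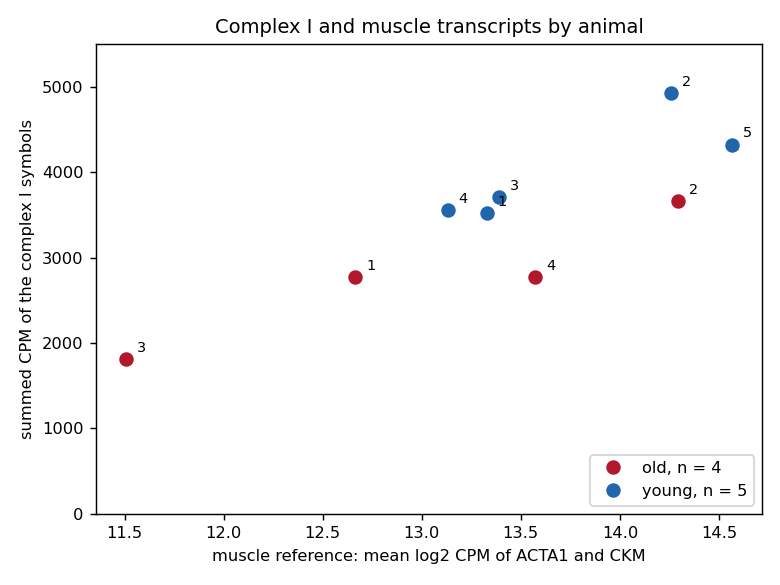
Summed CPM of the complex I symbols (vertical axis, from 0) against the muscle reference, the mean log2 CPM of ACTA1 and CKM (horizontal axis), for 4 old (red) and 5 young (blue) rats with their replicate numbers. Old replicate 3 is lowest on both axes (1807 CPM) and old replicate 2 highest among the old on both (3658 CPM). Old replicates 1 and 4 differ in muscle level but not in the sum. Old replicates 2 and 4 lie lower than young points at similar muscle levels. Old replicates 1 and 3, at 12.7 and 11.5, lie below the lowest young muscle level (13.1, young replicate 4).

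The levels of most members followed the muscle reference within age groups. In a model with age, the slope of a gene on the muscle reference is its change in log2 CPM per log2 unit of ACTA1 and CKM. A positive slope was called in 29 of 35 members (82.9%), against 8.03% of all genes (edgeR, adjusted p under 0.05), and a negative one in 0 of 35, against 1.65% of all genes. The median slope was 0.32 over the members and -0.02 over all genes, while the genes that define the reference had slopes of 1.03 (ACTA1) and 0.97 (CKM). A positive slope was also called in 14 of 14 fast fibre genes but in 0 of 10 slow fibre genes. The reference thus rose with fast fibre transcripts, while the slopes of slow fibre genes were uncertain, as for MYH7 (-1.34 ± 0.66). Among young rats the mean log2 CPM of the slow fibre genes was highest in replicates 2 and 5, which also had the highest references. Among old rats it was highest in replicate 3, which had the lowest reference. A separate slope for each age was not tested. The number called rested on the animals at the ends of the old range: it was 4 without old replicate 2 and 5 without old replicate 3, and 20 to 31 without any other library. The median slope of the members ran from 0.27 to 0.35 over all 9 of these fits. With library totals alone as the scaling, 10 members were called and the median slope was 0.23, against -0.16 over all genes.

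The members differed in how steeply they followed muscle. The core subunits NDUFS7 (slope 0.57 ± 0.08, edgeR adjusted p = 0.00332), NDUFS3 (0.49 ± 0.06) and NDUFV2 (0.44 ± 0.06) were the steepest, followed by NDUFA4 (0.42 ± 0.07). At the other end, NDUFA4L2 (-0.05 ± 0.17) and NDUFS5 (0.05 ± 0.21) had slopes smaller than their SE, and NDUFS4 was at 0.18 ± 0.05 (edgeR adjusted p = 0.0667). NDUFA2, NDUFB7 and NDUFV1 were the other members with no call, at slopes of 0.24, 0.33 and 0.27. By group, 6 of 7 core subunits, 6 of 8 matrix arm, 7 of 8 proximal and 9 of 10 distal accessory subunits had a called slope. The differences between members' slopes were not tested.

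**Figure D4:**
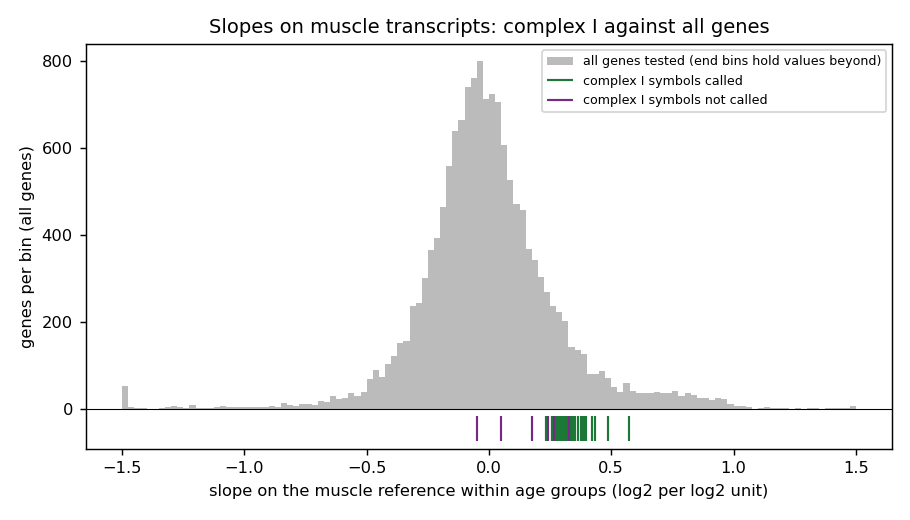
Slope of each gene on the muscle reference within age groups, in log2 CPM per log2 unit; the histogram counts all 14933 genes tested per bin (values beyond the ends are in the end bins), and the ticks under it are the 35 members, green where called and purple where not. The members' ticks lie to the right of the peak of all genes, around their median of 0.32, apart from NDUFA4L2 at -0.05 and NDUFS5 at 0.05.

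With the muscle reference as a covariate, 9 of 35 members were lower in old skin (25.7%, against 6.56% of all genes called lower) and 0 were higher, where 11.1% of all genes were called. At an unadjusted p under 0.05 in edgeR, 26 of 35 members were lower and 0 higher, against 15.7% and 17.3% of all genes. The 9 were NDUFA3, NDUFB2, NDUFB5, NDUFB9, NDUFC1, NDUFS1, NDUFS3, NDUFV2 and NDUFV3. NDUFC1 again had the smallest adjusted p (-0.53 ± 0.13, edgeR adjusted p = 0.0252), followed by NDUFV2 (-0.40 ± 0.10, adjusted p = 0.0321), NDUFB2 (-0.42 ± 0.11, 0.0344) and NDUFS1 (-0.37 ± 0.10, 0.0355), all in edgeR. The median over the members was -0.35, against -0.06 over all genes, and 34 of 35 were below 0, NDUFB4 being at 0.06. The references of old replicates 1 and 3 (12.7 and 11.5) lay below the lowest young one (13.1, young replicate 4). At those levels the age effect rests on the fitted slope, with no young animal to compare. The count rested on single libraries. It was 0 without old replicate 4, young replicate 1 or young replicate 4, 1 without old replicate 2 or young replicate 3, 3 without young replicate 2, and 7 to 12 without the others. The counts over all genes in these fits are not given here, so the members' counts cannot be set against that background.

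As a plain ratio to the muscle reference in each sample, the ages overlapped. The log2 of the summed complex I CPM minus the muscle reference was -1.23, -2.46, -0.69 and -2.14 in old rats, against -1.54, -1.99, -1.53, -1.34 and -2.49 in young rats. The ratio was highest in old replicate 3, the animal with the least muscle transcript, and lowest in young replicate 5, the one with the most. It averaged -1.63 ± 0.814 in old and -1.78 ± 0.464 in young skin (SD, n = 4 and n = 5), a difference of 0.15. Against ACTA1 alone the difference was 0.54, and against CKM alone it was -0.24. With all muscle list genes as the reference it was 0.87. That reference includes the slow fibre genes, whose own median fold change was -3.36, so it differs between the ages by itself. Leaving out each library gave -0.16 (without old replicate 3) to 0.43 (without old replicate 2), so its sign rested on single animals; it was also below 0, at -0.026, without young replicate 5. When every gene was set against the reference in this way, 0 of 35 members were called in either direction (limma, adjusted p under 0.05). Of all genes, 0.221% were called lower and 1.46% higher. An unadjusted p under 0.05 was reached by 0 members, and by 0.77% of all genes in the lower and 10.9% in the higher direction. The median of all genes was 0.68 on that scale and the median of the members 0.15, with 5 members below 0 and 30 above.

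Old replicate 2 and young replicate 2 had muscle references of 14.3 and 14.3, and summed complex I of 3658 CPM in the old and 4925 CPM in the young rat. Old replicate 4 and young replicate 3 had references of 13.6 and 13.4, and sums of 2771 CPM in the old and 3708 CPM in the young rat. These pairs were chosen after their values were seen and carry no test.

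Of the 8 genes whose pattern was most like that of the members, 6 encode subunits of complexes III, IV or V. Over the 9 samples, the centred log2 CPM of ALAS1, which encodes the rate-limiting enzyme of haem synthesis outside red cells, differed least from the mean of the tested members (root mean square difference 0.0249). The next were COX7B (0.0463), UQCRC1 (0.0532), ATP5I (0.0563), COX6C (0.0582), ATP5J2 (0.0660), SLC25A3, the mitochondrial phosphate carrier (0.0699), and ATP5O (0.0740), out of 14053 genes with a mean of at least 1 CPM. Among the members themselves the difference from their mean was 0.0602 for NDUFA7 and 0.252 for NDUFS7, and it was 0.463 for NDUFA4L2 and 0.626 for NDUFS5. Of 30 tested subunits of complexes II to V, 0 rose and 1 fell, with a median of -0.52. That was ATP5G3, a ring subunit of ATP synthase (-0.67 ± 0.19, edgeR adjusted p = 0.0453), which lost its call when any library except old replicate 2 was left out (adjusted p up to 0.134).

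NDUFAB1, the mitochondrial acyl carrier protein and a complex I subunit outside the symbol rule, had 30.0, 46.7, 18.2 and 31.4 CPM in old rats, against 42.7, 60.6, 40.4, 42.0 and 57.8 CPM in young rats. Old replicate 3 was again lowest and young replicate 2 highest (-0.63 ± 0.25, edgeR adjusted p = 0.128; slope 0.44 ± 0.06). Of 14 assembly factors tested, 0 rose and 1 fell, with a median of -0.33, and 5 had a called slope on muscle. The one that fell was ACAD9, an acyl-CoA dehydrogenase that also acts in complex I assembly. It had 115, 95.9, 129 and 92.3 CPM in old rats, against 140, 202, 186, 165 and 162 CPM in young rats. The groups did not overlap, and here old replicate 3 was the highest old animal (-0.66 ± 0.15, edgeR adjusted p = 0.0181; 0.0827 without old replicate 4 and 0.0521 without young replicate 4). Its slope on muscle was -0.10 ± 0.08 (edgeR adjusted p = 0.483).

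Of 11 tested regulators of mitochondrial genes, 0 rose and 1 fell, with a median of -0.23. ESRRA, an orphan nuclear receptor of energy metabolism, had 44.2, 53.2, 26.6 and 40.5 CPM in old rats, against 59.3, 84.5, 63.9, 57.7 and 70.1 CPM in young rats. The groups did not overlap (-0.71 ± 0.20, edgeR adjusted p = 0.0401), but the call was lost without any library except old replicate 2 (adjusted p up to 0.117). PPARGC1A, a coactivator of mitochondrial biogenesis, was at -0.08 ± 0.29 and NRF1 at -0.02 ± 0.11 (edgeR adjusted p = 0.871 and 0.923), both named after their values were seen. Of 14 genes of mitochondrial import, membrane and citrate cycle, 0 rose and 2 fell, with a median of -0.44. These were TIMM44, of the import motor (-0.52 ± 0.11, edgeR adjusted p = 0.0108; 0.0508 without old replicate 4), and IMMT, of the cristae junctions (-0.50 ± 0.12, adjusted p = 0.0269; up to 0.0748 without old replicate 1, 3 or 4 or young replicate 1 or 2). Of 5 muscle isoforms of mitochondrial and oxidative proteins, 0 rose and 2 fell. MB (myoglobin) had 537, 1298, 233 and 634 CPM in old rats, against 1964, 4090, 2113, 1885 and 3403 CPM in young rats (-1.99 ± 0.47, edgeR adjusted p = 0.0219). CKMT2, the mitochondrial creatine kinase of muscle, was at -1.56 ± 0.37 (edgeR adjusted p = 0.021). Both calls were lost without old replicate 1 or 4, and that of MB also without young replicate 2 (adjusted p up to 0.0685).

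Other cell types also differed between the ages, and their part in the complex I values was not tested. Of 10 slow muscle fibre genes, 8 fell and 0 rose, and their summed level was 436 to 783 CPM in old and 1623 to 3891 CPM in young rats. A slope on the muscle reference was called in 0 of these 10, and 9 of them were called lower with the reference as a covariate. Of 14 fast fibre genes, 2 fell and 1 rose, with sums of 17980 to 104500 CPM in old and 44590 to 102900 CPM in young rats. All 14 had a called positive slope on the muscle reference. Of 9 fat cell genes tested, 8 rose, with sums over the list of 3682 to 7980 CPM in old and 588 to 1276 CPM in young rats, and PNPLA2 was at 0 in every library. UCP1, the defining gene of brown fat, also had 0 counts in every library. In all, 3996 of the 23480 symbols had no count. The annotation and counting rule are not known, so the 0 of PNPLA2 or UCP1 is uncertain as a level of the gene. Of 4 other brown fat genes tested, 1 fell and 0 rose, with sums over the list of 179 to 462 CPM in old and 750 to 1901 CPM in young rats. The one that fell was ELOVL3, a fatty acid elongase that sebaceous glands also express (-2.37, edgeR adjusted p = 0.0081). ELOVL3 had 70.6 to 315 CPM in old and 608 to 1589 CPM in young rats, the greater part of each young sum. COX8B of this list is also on the list of muscle isoforms, with a slope on the muscle reference of 0.94 ± 0.06. The sums therefore do not stand for brown fat alone. Of 7 macrophage genes, 7 rose (374 to 805 CPM in old and 102 to 197 CPM in young rats). Of 10 keratinocyte genes, 3 fell and 0 rose (18360 to 25330 CPM in old and 24420 to 72520 CPM in young rats), and 0 of the 10 had a called slope on muscle. Of 10 sebaceous gland genes, 4 fell and 0 rose (1494 to 2791 CPM in old and 4208 to 8141 CPM in young rats). Of 6 fibroblast genes, 3 rose and 0 fell, with sums of 12220 to 16530 CPM in old and 9894 to 14350 CPM in young rats. These were DCN (1.15), LUM (0.97) and PDGFRA (1.71), with edgeR adjusted p of 0.0163, 0.0084 and 0.0014.

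**Figure D5:**
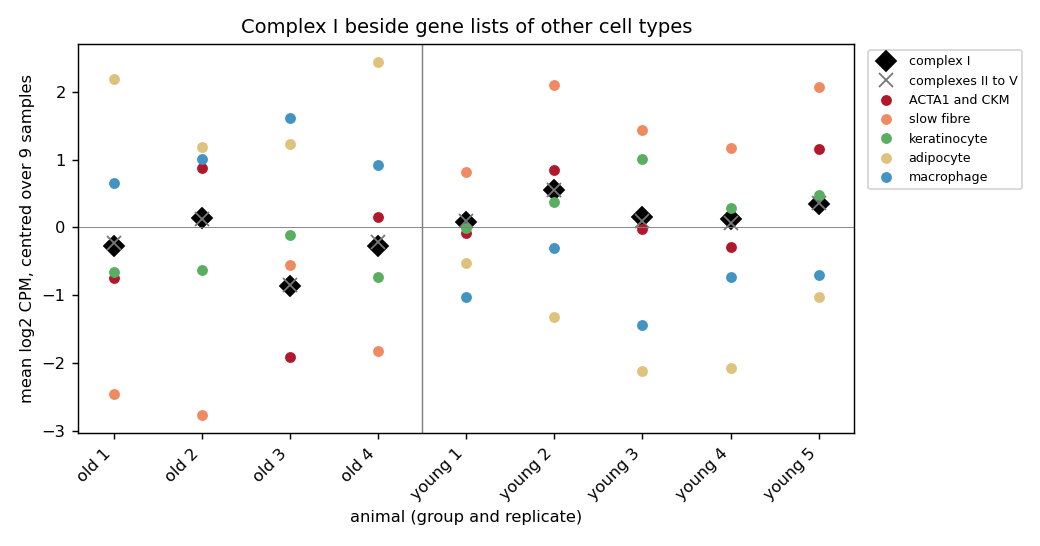
Mean log2 CPM of the tested complex I members (black diamonds) and of 6 other gene sets in each animal, centred over the 9 samples, with old rats left of the vertical line and young rats right of it. The crosses of complexes II to V lie on the diamonds in each animal, from -0.87 for complex I in old replicate 3 to 0.55 in young replicate 2, while fat cell and macrophage genes are higher in all 4 old rats.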

How the data were processed

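RNA of whole skin was measured in 9 rats. Column-purified RNA was made into TruSeq RNA v2 libraries, per the labels' protocols. That kit keeps no strand, which leaves overlapping and antisense genes uncertain. BWA appears in the submitters' processing notes; the sources used here give neither its version nor the genome build, annotation or counting rule. The authors deposited 1 table of raw counts by gene symbol. Columns were matched to samples by title and groups taken from the labelled age. The most similar libraries of a group still differed by 26.2 in chi-square per degree of freedom, and each counted as 1 sample.

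Genes passing filterByExpr (minimum count 10, total 15) were tested with edgeR 4.0.16 (R 4.3.3) by quasi-likelihood fits of all 9 samples, with TMM scaling, no covariate, and Benjamini-Hochberg adjustment over 14933 genes at 0.05. The SE was worked back from the F statistic and is approximate. The muscle reference is the mean log2 CPM (prior count 2) of ACTA1 and CKM. Its slope and the age effect beside it came from 1 further edgeR fit, and ratios to it from limma 3.58.1. No summary over the members carries a p.

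The members and lists were chosen with earlier results of these data known. Genes given by sample were called members, the 4 members with the largest and the 4 with the smallest difference, up to 6 that changed side with muscle, NDUFA4 and NDUFA4L2; called genes of the other lists are named. NDUFV1, NDUFS7, NDUFA9 and NDUFAB1 were singled out after their values were seen. Values of 1 tested member are not reported here, though it is in all counts and medians. Levels were not compared between genes. RefSeq (GRCr8) symbols matched 39 of the 40. The fits were tested on simulated data. Alternatives were DESeq2 1.42.0, limma-voom, other scalings, filters and thresholds, a replicate block, other muscle references, and leaving out each library. Figures were drawn with matplotlib 3.10.9.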

Additional observations from a re-analysis of the deposited data

Results flagged for a closer look

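Within the old or young animals, 5 values of 92 groups of values examined lay far from the rest, where chance alone flags about 1 in 20 groups. NDUFA10L1 stood at 11.2 CPM in old replicate 2, against 0 to 0.118 CPM in the other old rats and 0 to 0.114 CPM in the young rats. In the same animal NDUFB4L1 was at 0.103 CPM and at 0 in the other old rats, which is 2 reads. For NDUFS6, old replicate 1 alone of the old rats had any reads, 2 of them (0.0528 CPM). Young replicate 2 stood above the other young rats for NDUFA2, at 73.7 CPM against 57.4 to 60.3, and for NDUFB7, at 110 CPM against 83.01 to 87.1.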

How the results depend on the processing

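The number of members called lower was 10 with DESeq2, 4 with limma-voom, 0 with upper quartile scaling, 0 at an adjusted p of 0.01, 9 with the muscle reference as covariate and 0 as a ratio to it, against 1 in edgeR; leaving out each library gave 0 to 17. Over all genes, 1280 were lower with DESeq2, 314 with library totals alone, 138 at an adjusted p of 0.01 and 33 as a ratio, against 659, and 236 to 786 without each library; it was 236 without old replicate 4, and 350, 371 and 316 without young replicates 2, 3 and 4. Higher calls over all genes were 702 at 0.01 and 218 as a ratio, against 1437. As a ratio to the muscle reference the median fold change was 0.15 over the members and 0.68 over all genes. The ratio subtracts the same reference from every gene. Its old minus young difference was -0.72, so all genes shift upward alike and smaller falls change sign by arithmetic. On that scale these genes had the opposite sign: NDUFB4 0.50, NDUFC2 0.41, NDUFS4 0.40, NDUFA8 0.30, NDUFA4L2 0.30, NDUFS1 0.16, NDUFB5 0.060, NDUFA4 0.049, NDUFB9 0.041, NDUFB2 0.033, NDUFV2 0.015, CKM 0.39, IMMT 0.23, TIMM44 0.20, ACAD9 0.065 and ATP5G3 0.032. With muscle as covariate NDUFB4 was at 0.055 and CKM at 0.38. CKM and ACTA1 make up the reference, so their values on these scales mirror each other by construction. ACTA1 was at -0.39 as a ratio and -0.36 with the covariate. Leaving out each library gave -0.39 to 0.039 for NDUFB4 and -0.54 to 0.20 for CKM. ACAD9 missed the threshold with library totals alone (adjusted p = 0.106), as did IMMT (0.0756) and ATP5G3 (0.0666), all in edgeR. With upper quartile scaling NDUFC1 (edgeR adjusted p = 0.0626), ESRRA (0.0554) and ATP5G3 (0.0615) missed it. ATP5G3 also missed it with no filter on low counts (0.0534) and with the muscle covariate (0.0514, both edgeR). As a ratio NDUFC1, ESRRA, CKMT2 and MB missed it in limma (adjusted p = 0.966, 0.99, 0.566 and 0.0704). At an adjusted p of 0.01 none of NDUFC1, ACAD9, ESRRA, TIMM44, IMMT, ATP5G3, CKMT2 and MB passed. Positive slopes on muscle numbered 10 members and 763 genes with library totals alone, and 4 to 31 members and 665 to 1121 genes without each library. Members lower with the covariate numbered 0 to 12 without each library, and the counts over all genes in those fits are not given here. The difference in log2 ratio of summed complex I was 0.87 with all muscle list genes as reference. Apart from the shift on the ratio scale, the cause of these changes was not tested.

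Old and young samples share replicate numbers, and no consistent pairing by number was seen. Deviations from the group means correlated at 0.673, -0.0681, 0.0727 and -0.471 in the 4 pairs, and 1 of 4 old samples correlated best with its own number. Whether samples of the same number shared any handling was not tested. With a replicate block, 6 members were lower, against 0 in the same 8 samples without it (CKM 0.11 there); over all genes the block gave 646 lower and 1158 higher, against 526 and 1261. The covariate counts without each library and the block-free fit of 8 samples were chosen after seeing the data.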
